A study of Mus musculus with 12 samples.

Results

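Glutathione transferases are a family of detoxification enzymes, and 10 of their genes are described here across the libraries of a muscle injury series: Gstm1, Gstm2, Gstm5, Gsta3, Gsta4, Gstt1, Gstt3, Gstp1, Gsto1 and Mgst1. They were chosen by symbol because Gstm1 had stood among the clearest decreases after injury in wild-type cells, so the wild-type change from day 0 to day 7 is given as a description, with no test. The 10 genes are among 30112 genes kept from the deposited table, and all 10 passed the filter on low counts that left 15859 genes for testing. The series holds 12 bulk RNA-seq libraries of muscle stem cells, the resident progenitors that rebuild muscle fibres, sorted by flow cytometry from the tibialis anterior, gastrocnemius and quadriceps of C57BL/6J mice aged 2 to 3 months. Samples came from wild-type mice and from a Sestrin1,2 Knockout, before injury (day 0) and at 7 and 21 days after it, with 2 libraries for each genotype and day. The knockout lacks a pair of stress-responsive proteins that restrain mTORC1 signalling. The labels do not say how the muscle was injured, which surface markers defined the sort, how the alleles were made, or whether the 2 libraries of a group came from separate animals. P-values therefore measure the spread between these libraries, which may be technical.

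Glutathione transferases join the tripeptide glutathione to reactive electrophiles, which makes them more soluble and ready for export. Mice carry several cytosolic classes, named with Greek letters (mu, alpha, theta, pi and omega among the genes described here), and a separate group of membrane-bound microsomal enzymes. Many of these genes are known targets of NRF2, the transcription factor that answers oxidative and electrophilic stress, which binds antioxidant response elements in gene promoters. Lipid peroxidation products, endogenous quinones and many drugs are among their substrates. Resting muscle stem cells have low metabolic activity, and they enter the cell cycle and differentiate after injury.

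Each library held between 28396862 and 38950614 estimated counts. Sesn2, a targeted gene, was at 75.2 and 84.5 CPM (reads scaled to library size with TMM factors) in wild type at day 0, 5.48 and 7.04 in knockout at day 0, 44.9 and 47.5 in wild type at day 7, and 2.36 and 1.92 in knockout at day 7. Day 21 libraries carrying the wild-type label had Sesn2 levels of 8.93 (replicate 1) and 82.2 CPM (replicate 2), and those carrying the knockout label had 9.87 and 108 CPM. So 1 library of each genotype at day 21 went against its label. Day 21 values are by label. The main changes of members are also given without those 2 libraries, as are their counts of calls against day 0 and between genotypes. Marker lists at day 21 are by label only. Sesn1, the other targeted gene, was at 45.9 to 46.1 CPM in knockout against 68.7 to 70.5 CPM in wild type at day 0, and at 22.5 and 28.4 against 67.9 and 84.1 CPM at day 7. At day 21 Sesn1 was at 43.8 and 78.4 CPM under the wild-type label and 41.7 and 67.2 CPM under the knockout label (replicates 1 and 2), so the same 2 libraries stood apart from their labels. Counts on Sesn1 transcripts do not tell whether the deleted part was read.

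The sorted cells carried muscle stem cell transcripts, since each of the 13 markers listed for that cell type was detected in every library, with Pax7 between 10.2 and 60.2 CPM. The summed level of these 13 markers was 2012 to 4640 CPM over the libraries. Genes listed as markers of fibro-adipogenic cells summed to 16697 to 34550 CPM, most of it from Dcn, Gsn and Col1a1. Immune markers summed to 1774 to 1806 CPM in wild type and 2902 to 2940 CPM in knockout at day 0, the latter above the muscle stem cell sum of 2012 to 2056 CPM, and nearly all of it was Lyz2 (2899 and 2935 CPM in knockout at day 0). Ptprc, the general marker of leukocytes, was at or under 9.01 CPM in every library. In bulk libraries, fewer cells of a type and less RNA per cell cannot be told apart, and this holds for every level below.

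The genes lie on 6 chromosomes in the GRCm38 build, the build the submitters name, with gene bounds from GENCODE M21. The mu class members form a cluster with Gstm5 at chr3:107895821-107898686, Gstm2 at chr3:107981702-107986453 and Gstm1 at chr3:108012255-108017973. The theta class pair lies within 2.4 kb of each other, Gstt3 at chr10:75774115-75781414 and Gstt1 at chr10:75783813-75798584. Gstp1 lies at chr19:4035407-4037985, 2.3 kb from Gstp2, and Gsto1 at chr19:47854970-47864790, 0.7 kb from Gsto2. Gsta3 is at chr1:21240589-21265661, Gsta4 at chr9:78182774-78209349 and Mgst1 at chr6:138140316-138156755. Genes with shared sequence can share reads, and the share of 76-base windows of a gene's coding transcripts that occurred in another gene was 44.3% for Gstp1, 19.1% for Gstt3, 12.1% for Gstm1, 9.98% for Gstm5, 2.68% for Gstm2 and 0 for the other 5. The windows of Gstp1 were shared with Gstp2 and Gstp-ps and those of Gstm1 with Gstm2-ps1, Gstm3 and Gm8834, while those of Gstt3, Gstm5 and Gstm2 were shared with Gm20441, 4933431E20Rik and Gm12499. The coding sequence of Gstp1 was 98.1% identical to that of Gstp2, so the split of reads between these 2 is uncertain. Gstm1 and Gstm2 were 78.2% identical and Gstt1 and Gstt3 were 76.3% identical. Whether the counting used strand is not given in the sources used here, so reads from overlapping antisense genes cannot be told apart.

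Promoter sequences from RefSeq (GRCm38.p6) were found for 9 of the 10 genes, all but Gsta4, and 5 are shown, chosen after their values were seen, for the unlike courses of their genes. Gstm1 and Gstt1 had large decreases in both genotypes, Gstm5 a modest one, Gsto1 increased, and Mgst1 was the member most reduced in knockout before injury. Each line gives the 250 bases before a start listed by RefSeq, 5′ to 3′ on the gene's strand. The Gstt1 window lies wholly inside the GENCODE bounds of its gene, and the others shown overlap theirs in part. Capitals mark the letters TATAAA, the TATA box, and TGACNNNGC, the core of the antioxidant response element, both searched on both strands.
Gstm1, second listed start, minus strand, chr3:108017819-108018068: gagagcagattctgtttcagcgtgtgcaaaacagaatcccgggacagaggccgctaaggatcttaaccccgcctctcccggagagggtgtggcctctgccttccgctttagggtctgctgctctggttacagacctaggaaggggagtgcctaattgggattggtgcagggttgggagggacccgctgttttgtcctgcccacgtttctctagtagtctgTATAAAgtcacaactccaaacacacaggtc
Gstt1, minus strand, chr10:75797732-75797981: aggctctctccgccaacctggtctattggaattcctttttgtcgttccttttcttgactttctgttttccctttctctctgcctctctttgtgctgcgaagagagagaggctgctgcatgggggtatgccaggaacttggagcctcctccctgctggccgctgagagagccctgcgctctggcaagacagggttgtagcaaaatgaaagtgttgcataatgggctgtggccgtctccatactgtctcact
Gstm5, plus strand, chr3:107895604-107895853: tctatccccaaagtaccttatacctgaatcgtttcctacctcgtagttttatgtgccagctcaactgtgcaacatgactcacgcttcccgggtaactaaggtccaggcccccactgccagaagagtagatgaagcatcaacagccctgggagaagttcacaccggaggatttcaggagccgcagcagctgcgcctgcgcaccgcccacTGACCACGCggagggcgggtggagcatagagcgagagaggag
Mgst1, first listed start, plus strand, chr6:138140277-138140526: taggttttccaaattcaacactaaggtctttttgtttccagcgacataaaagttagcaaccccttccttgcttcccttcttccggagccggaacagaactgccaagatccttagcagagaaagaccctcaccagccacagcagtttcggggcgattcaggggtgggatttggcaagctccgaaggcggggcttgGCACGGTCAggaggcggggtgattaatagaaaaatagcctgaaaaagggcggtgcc
Gsto1, plus strand, chr19:47854723-47854972: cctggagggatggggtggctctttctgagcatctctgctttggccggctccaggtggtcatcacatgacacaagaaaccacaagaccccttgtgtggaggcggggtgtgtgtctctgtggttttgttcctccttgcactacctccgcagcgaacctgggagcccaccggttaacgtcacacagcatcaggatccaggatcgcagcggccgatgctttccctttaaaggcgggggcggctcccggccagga
TGACNNNGC occurred in the promoters of 3 of the 9 genes, Gstm5 at 42 to 34 bases before the start, Gsta3 at 121 to 113 bases and Mgst1 at 56 to 48 bases on the opposite strand. The same letters occurred in 11.5% of all 27025 genes with a promoter of this length. TATAAA occurred in 1 of the 9, in the second Gstm1 promoter at 30 to 25 bases before the start, and in 14.3% of all genes. The first Gstm1 promoter, not shown, held neither motif. The promoters of Gstt1 and Gsto1, which moved in opposite directions after injury, held neither motif in this window. A match is a description of letters, not of binding.

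Transcript levels, compared between genes per transcript length in TPM, differed widely among the 10 genes, with Gstm1 at the top and Gsta3 at the bottom. In wild type at day 0 Gstm1, a mu class enzyme, stood at 865 and 877 TPM and made up 52.8% to 53.6% of the summed TPM of the 10 genes. Gstp1, the pi class enzyme, followed at 184 and 189 TPM, and Mgst1, the microsomal enzyme of the endoplasmic reticulum and outer mitochondrial membrane, at 150 and 160 TPM. Gstm5, another mu class enzyme, was at 131 and 134 TPM, and Gstm2 of the same class at 105 in both libraries. Lower in the order were Gstt1, a theta class enzyme, at 75.1 and 79.8 TPM, and Gsto1, the omega class enzyme that reduces dehydroascorbate and removes glutathione from proteins, at 53.7 and 59.3 TPM. Gstt3, also theta class, was at 25.4 and 30.7 TPM, and Gsta4, an alpha class enzyme that conjugates the lipid peroxidation product 4-hydroxynonenal, was at 24.5 and 26.7 TPM. The ranges of these 2 neighbours overlapped. Gsta3, an alpha class enzyme known for handling aflatoxin epoxide, was barely present at 1.63 and 1.20 TPM, and 7.04 to 44.2 estimated counts in any library stand behind its values.

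**Figure D1:**
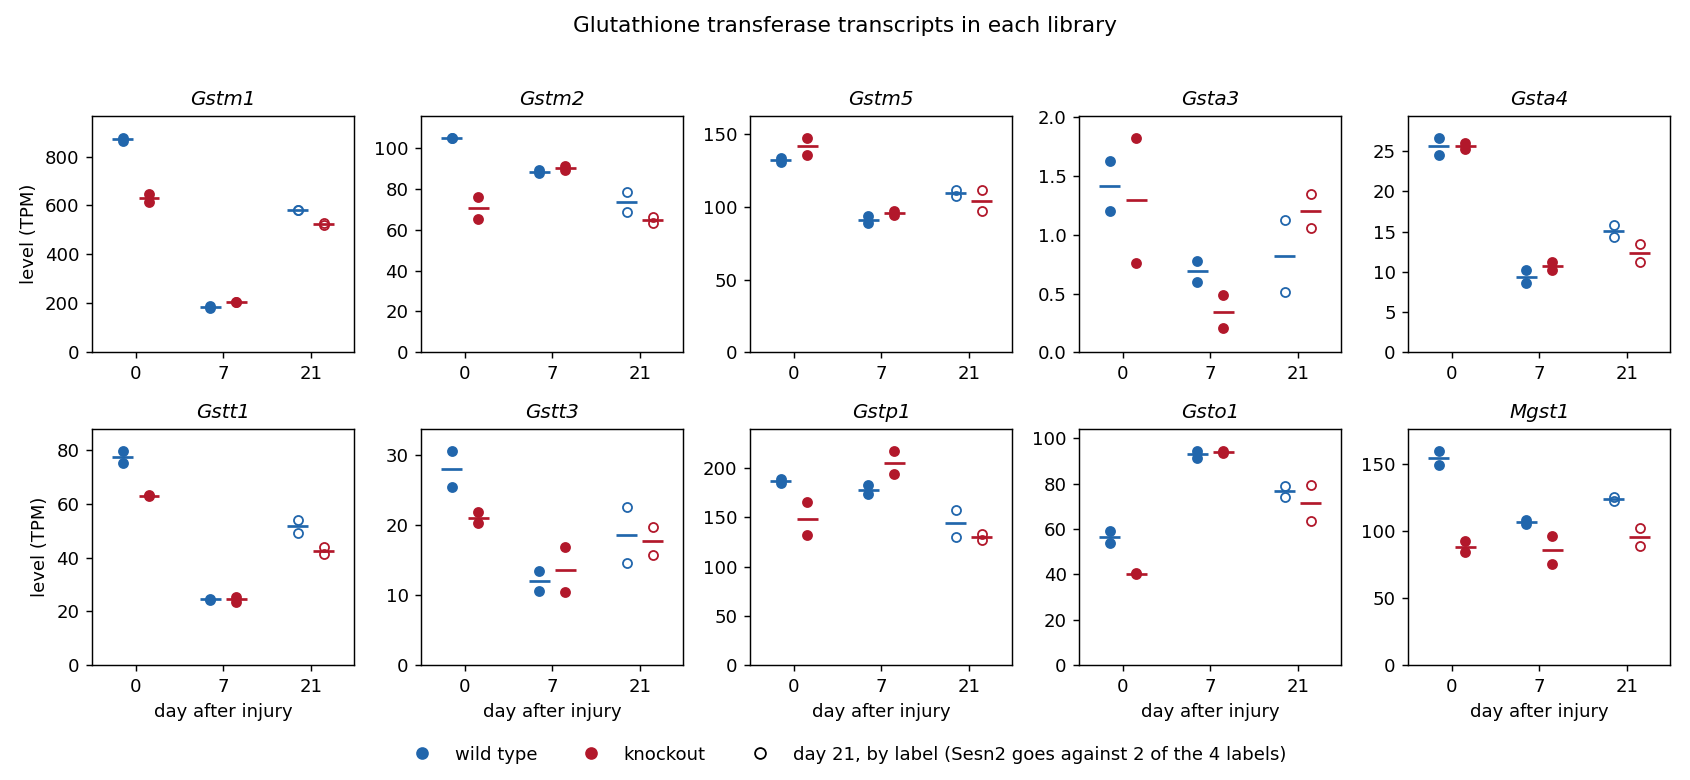
Level of each of the 10 glutathione transferase genes in every library, in TPM on a linear axis that starts at 0 with its own scale per gene, by day after injury (points are libraries, bars are means of 2 libraries, open points are day 21 by label). Gstm1 stood at 180 to 205 TPM in the 4 day 7 libraries against 614 to 877 TPM in the 4 day 0 libraries, while Gsto1 was highest at day 7.

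In wild type at day 7, the contrast behind the choice, Gstm1 was at 188 and 180 TPM, far under both day 0 libraries. Its log2 fold change, fitted to counts as are all those below unless TPM is named, was -2.46, with a mean CPM 18.2% of that at day 0, and the other decreases were smaller. Gstt1 was at 24.3 and 24.7 TPM (log2 fold change -1.96), Gsta4 at 8.63 and 10.2 TPM (-1.67), and Gstt3 at 13.5 and 10.6 TPM (-1.33). Each of these 3 genes was clear of its day 0 range. Gsta3 (log2 fold change -0.95), Mgst1 (-0.89), Gstm5 (-0.74), Gstm2 (-0.48) and Gstp1 (-0.30) were lower by less. Gsto1 went the other way, to 94.6 and 91.5 TPM, a log2 fold change of 0.50. In CPM the 2 days did not overlap for any member, 9 being lower and 1 higher at day 7. Over all genes 37.3% were lower and 42.3% higher without overlap, and since the members were chosen on this contrast nothing is read from their count. The summed TMM-scaled level of the 10 genes was 1148 and 1174 CPM at day 0 and 428 and 413 CPM at day 7.

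Gstm1 was picked out in wild-type libraries, but the members were listed with earlier results of these data known. The knockout count therefore describes this list and not the family. In knockout 6 of the 10 members fell and 2 rose from day 0 to day 7 (edgeR, adjusted p under 0.05 over all 15859 genes tested). Among all genes 22.2% were called lower and 24.7% higher, 46.8% in all. The median log2 fold change was -0.60 over the 10 members and 0.03 over all genes. Gstm1 went from 647 and 614 TPM to 205 in both libraries, and no day 7 library came near a day 0 one. Fitted to counts it fell 3.3-fold (log2 fold change -1.72, SE 0.084, adjusted p = 2.94e-07).

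The theta class pair fell too, but unequally. Gstt1 went from 62.8 and 63.3 TPM to 23.5 and 25.5 TPM (log2 fold change -1.50, SE 0.12, adjusted p = 6.65e-06). Gstt3, its close neighbour on chromosome 10, went from 20.3 and 21.8 TPM to 16.8 and 10.5 TPM, so 1 of its day 7 libraries lay only a little under day 0. Its log2 fold change was -0.63 (SE 0.15, adjusted p = 0.00676), and without knockout day 7 replicate 2 it was -0.51 with an adjusted p of 0.0552. With limma on log2(TPM + 1) it was -0.63 with an adjusted p of 0.0588.

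In the alpha class, Gsta4 fell from 26.0 and 25.2 TPM to 11.3 and 10.2 TPM, with no overlap between the days. Its log2 fold change was -1.38 (SE 0.17, adjusted p = 0.000114). Gsta3 went from 0.757 and 1.83 TPM to 0.487 and 0.204 TPM, a fall called on very few counts. Its log2 fold change of -2.23 had an SE of 0.60 and an adjusted p of 0.0111, and the call was lost without knockout day 0 replicate 2 (log2 fold change -1.66, adjusted p = 0.0956) and without knockout day 7 replicate 2 (-2.11, adjusted p = 0.0591).

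The mu class did not move as a block. Gstm5 fell from 136 and 148 TPM to 94.7 and 97.0 TPM (log2 fold change -0.57, SE 0.093, adjusted p = 0.000604). Gstm2, which shares the cluster on chromosome 3, was at 75.8 and 65.3 TPM at day 0 and at 89.0 and 91.3 TPM at day 7, so its day 7 libraries were the higher ones. Its log2 fold change of 0.20 (95% interval -0.01 to 0.40) did not pass the test, with an adjusted p of 0.102. On log2(TPM + 1) with limma the same change was 0.35 with an adjusted p of 0.0143.

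Gsto1 was the member that rose most, from 40.6 and 40.1 TPM to 93.5 and 94.5 TPM, and both day 7 libraries stood far above both day 0 ones. The rise fitted to counts was 2.13-fold (log2 fold change 1.09, SE 0.14, adjusted p = 0.000139). Gstp1 went from 166 and 132 TPM to 218 and 194 TPM, a small rise (log2 fold change 0.34, SE 0.12, adjusted p = 0.0385) that was lost without knockout day 0 replicate 2 (0.17, adjusted p = 0.362), without knockout day 7 replicate 1 (0.26, adjusted p = 0.189) and without either wild-type library of day 0 or day 7 (adjusted p 0.0573 to 0.0782). With its near copy Gstp2 summed in, the change was 0.52 with an adjusted p of 0.00505. Mgst1 overlapped between the days, at 92.8 and 84.2 TPM and then 75.6 and 96.6 TPM, and its log2 fold change of -0.12 (95% interval -0.40 to 0.17) did not pass the test.

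**Figure D2:**
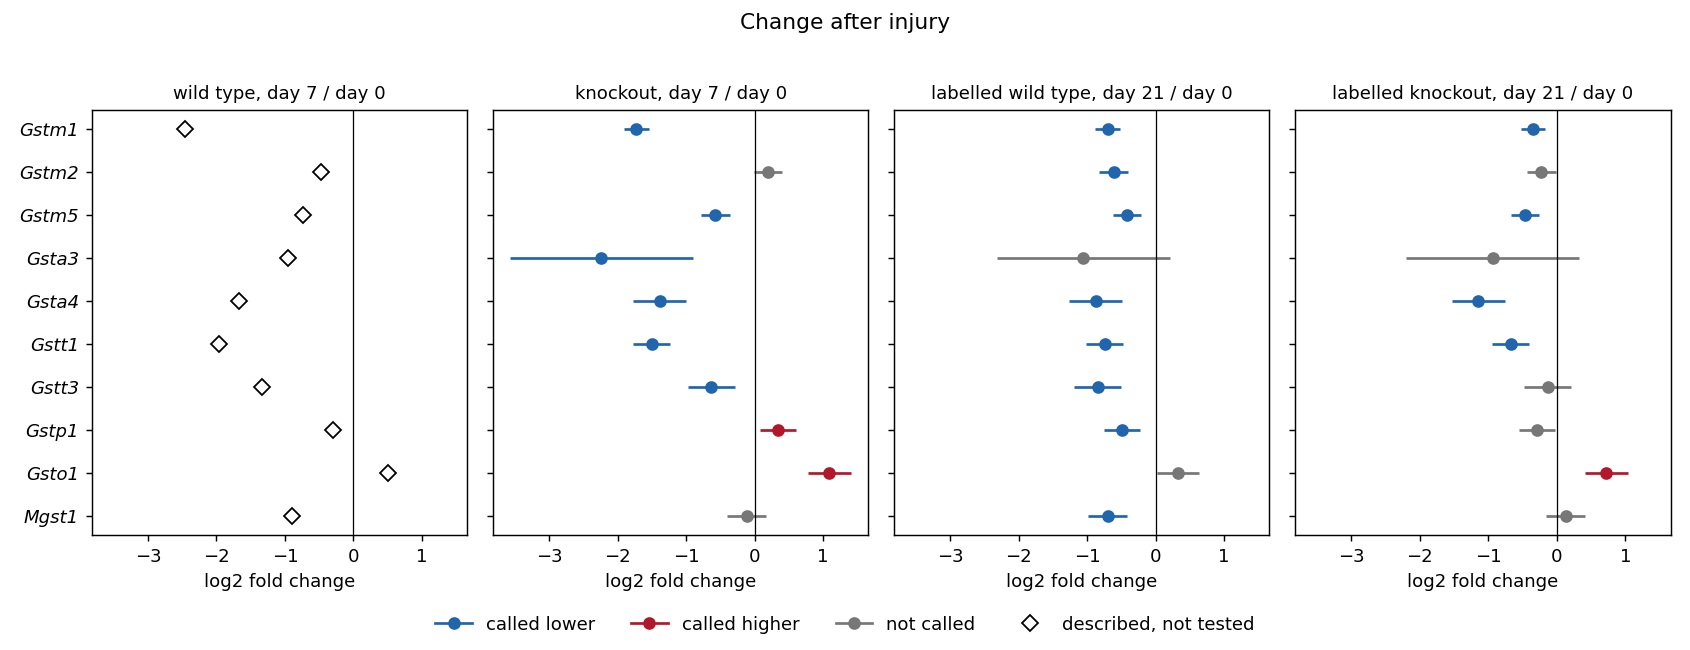
Log2 fold change of each gene against day 0 of the same genotype, from edgeR over all 12 libraries, with 95% intervals as bars; the wild-type day 7 panel shows values with no interval because that contrast chose the genes. In knockout at day 7 the values run from -2.23 for Gsta3 to 1.09 for Gsto1, and the day 21 values lie closer to 0 than the day 7 values for Gstm1 in both genotypes.

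The log2 fold change at day 7 was lower in wild type than in knockout for 9 of the 10 members, as a smaller rise for Gsto1, and Gsta3 was the exception. The change in knockout minus that in wild type was 0.78 on the log2 scale for Mgst1, 0.74 for Gstm1, 0.70 for Gstt3, 0.68 for Gstm2 and 0.63 for Gstp1. It was 0.59 for Gsto1, 0.46 for Gstt1, 0.29 for Gsta4, 0.17 for Gstm5 and -1.28 for Gsta3. These differences hold the wild-type contrast that chose the genes and were not tested. They also share the day 0 libraries in which most of the members were lower in knockout.

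Marker genes of other cells moved between the same libraries, where 22.2% of all genes were called lower and 24.7% higher at day 7 in knockout. All 6 Schwann cell markers were called lower at day 7 in knockout, and wild-type sums ran from 2717 to 2798 CPM at day 0 against 342 to 361 CPM at day 7. Knockout sums ran from 3263 to 3335 CPM and then 395 to 484 CPM, and by label the day 21 sums were 878 to 1200 (wild type) and 1278 to 1337 CPM (knockout). The 8 pericyte and smooth muscle markers (5 lower and 1 higher in knockout at day 7) summed to 8882 to 8950 CPM in wild type and 13643 to 14065 CPM in knockout at day 0, and to 3384 to 3402 and 4922 to 5033 CPM at day 7. Of the 10 muscle fibre markers 9 were called higher, with wild-type sums of 127 to 138 CPM at day 0 and 2404 to 3454 CPM at day 7, and knockout sums of 88.1 to 98.0 and 3258 to 5102 CPM. All 8 cell cycle markers were called higher, with sums of 87.2 to 93.2 and 29.4 CPM at day 0 in wild type and knockout and of 673 to 734 and 742 to 761 CPM at day 7. The 13 muscle stem cell markers were mixed, 6 higher and 3 lower, and summed to 2012 to 2056 CPM at day 0 and 2631 to 2756 CPM at day 7 in knockout. Endothelial markers were called lower in 4 of 10, fibro-adipogenic markers higher in 4 and lower in 4 of 11, red blood cell markers lower in 1 of 6 and adipocyte markers lower in 1 of 4. Of 8 immune markers tested 7 were called higher and 1, Lyz2, lower, while their sum was lower at day 7, at 392 to 597 CPM in wild type and 323 to 598 CPM in knockout against 1774 to 1806 and 2902 to 2940 CPM at day 0. Adipocyte markers were near 0 at day 7, with sums of 7.21 to 10.0 CPM in wild type and 9.75 to 9.97 CPM in knockout. None of the other sums was at or near 0 at any day. The part of these lists in the changes of the glutathione transferases was not tested.

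**Figure D3:**
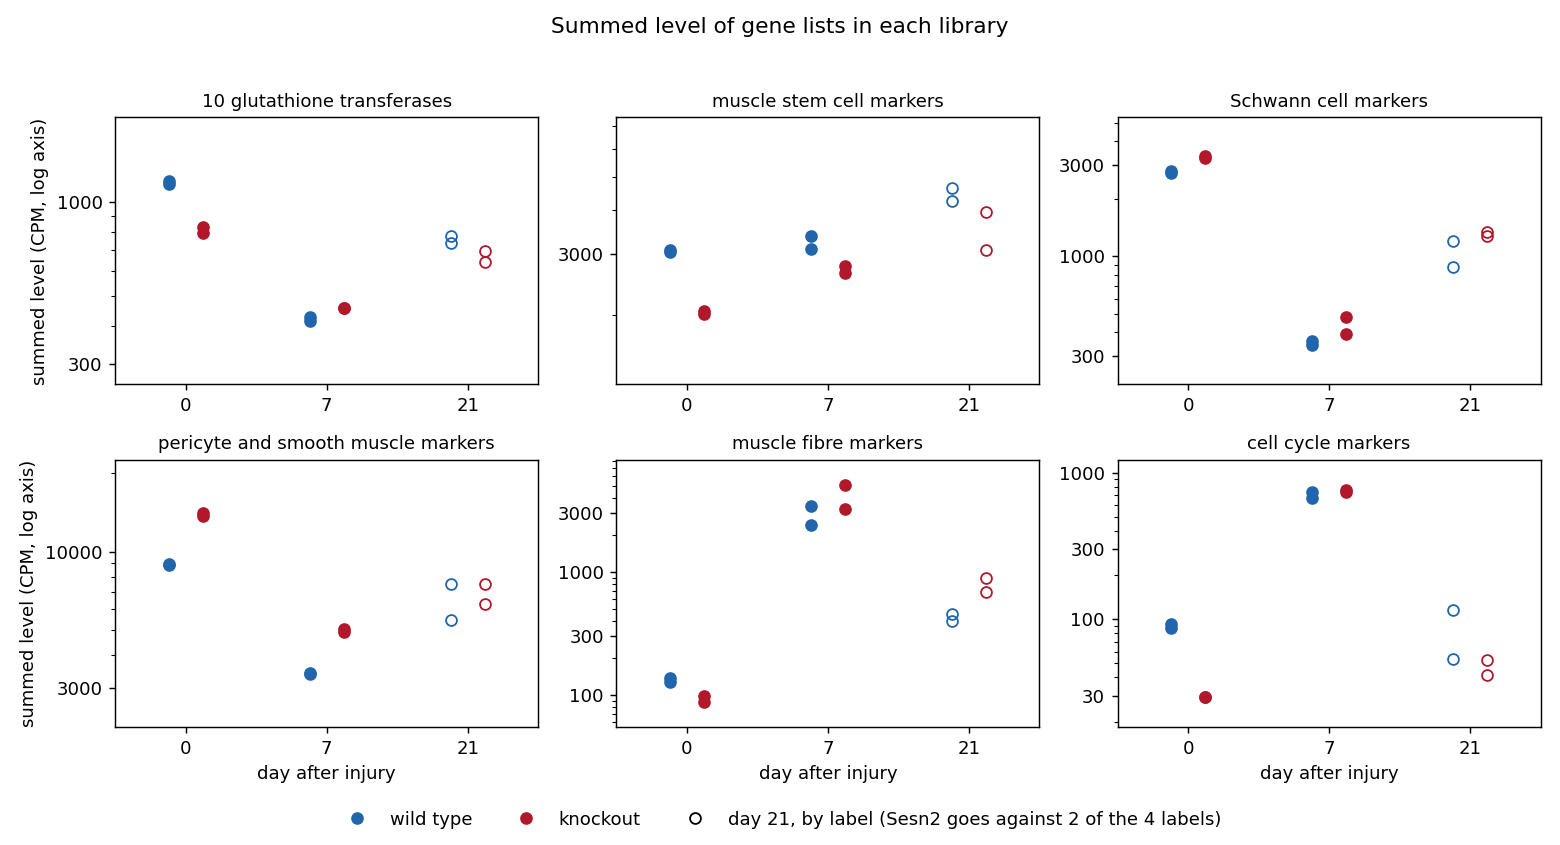
Summed TMM-scaled CPM of the 10 glutathione transferases and of 5 marker lists in each library, on log axes, by day after injury (points are libraries, open points are day 21 by label). The glutathione transferases, the Schwann cell markers and the pericyte and smooth muscle markers were all lowest at day 7. The muscle fibre and cell cycle markers were highest there.

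At day 21 most members lay between their day 0 and day 7 levels or under day 0. Gstm1 stood at 580 and 581 TPM in the libraries labelled wild type and at 520 and 530 TPM in those labelled knockout, above every day 7 library and under every day 0 library. In knockout against day 7 it rose by 1.38 on the log2 scale (SE 0.083, adjusted p = 3.49e-06), and in wild type by 1.76 (SE 0.084, adjusted p = 2.51e-06), and in both it remained under day 0, by log2 fold changes of -0.35 (adjusted p = 0.00936) and -0.70 (adjusted p = 0.000209). The knockout difference from day 0 was -0.32 with an adjusted p of 0.0711 without knockout day 0 replicate 1 and -0.31 with an adjusted p of 0.0502 without the library labelled knockout day 21 replicate 2. Without both doubted libraries it was -0.31 with an adjusted p of 0.00871. The wild-type comparisons at day 21 share the day 0 or day 7 wild-type libraries with the contrast that chose the genes. That sharing favours in advance values lower than day 0 and higher than day 7. The comparisons of 1 genotype share their day 21 libraries.

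Against day 0 in knockout by label, 4 of the 10 members were called lower and 1 higher, where 14.1% of all genes were called lower and 16.9% higher, 31% in all. Gsta4 was at 13.5 and 11.2 TPM, so that it overlapped day 7, and its log2 fold change of -1.15 (adjusted p = 0.00101) was the largest. Gstt1 was at 44.0 and 41.2 TPM (log2 fold change -0.67, adjusted p = 0.00246) and Gstm5 at 97.1 and 112 TPM (-0.47, adjusted p = 0.00437). Gsto1 was still above day 0 at 79.6 and 63.7 TPM (0.72, adjusted p = 0.00404). In wild type by label, where the shared day 0 libraries favour lower values, 8 of the 10 were called lower and none higher. Among all genes the shares were 15.5% and 20.4%, 35.9% in all, and nothing is read from the count of members. The exceptions were Gsta3 and Gsto1, the latter with a log2 fold change of 0.33 (adjusted p = 0.0947). Mgst1 (-0.70, adjusted p = 0.00224) and Gstt3 (-0.85, adjusted p = 0.00215) were lower there by edgeR, while in knockout their log2 fold changes were 0.13 and -0.13 and did not pass the test. With limma on log2(TPM + 1) Mgst1 was at -0.32 (adjusted p = 0.0727) and Gstt3 at -0.59 (adjusted p = 0.0943), which left 6 members called lower in wild type. In wild type the call of Gstm5 was lost without wild type day 0 replicate 2 (-0.37, adjusted p = 0.0655), and that of Gstp1 without the same library (-0.46, adjusted p = 0.0672) or without the library labelled wild type day 21 replicate 1 (-0.43, adjusted p = 0.0532). Leaving out the 2 doubted libraries gave the same 4 lower and 1 higher in knockout and 8 lower in wild type, each arm at day 21 then being a single library assumed to vary like the other groups. In that fit knockout Gsta4 was at -0.98, Gstt1 at -0.54, Gstm5 at -0.52 and Gsto1 at 0.92, and wild-type Gstm1 was at -0.76, Gstt3 at -0.71 and Mgst1 at -0.70.

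Marker lists also differed between day 21 and day 0, where by label 14.1% of all genes were called lower and 16.9% higher in knockout. In wild type these shares were 15.5% and 20.4%. By label, muscle stem cell markers were called higher in 10 of 13 in knockout and 9 of 13 in wild type, with day 21 sums of 3067 to 3962 and 4261 to 4640 CPM. Muscle fibre markers were higher in 9 of 10 in each genotype (689 to 895 and 400.1 to 454 CPM), and Schwann cell markers lower in 6 of 6 in knockout and 5 of 6 in wild type. Fibro-adipogenic markers were higher in 6 of 11 in knockout, and higher in 7 and lower in 2 in wild type (28032 to 30883 and 20640 to 34550 CPM). Red blood cell markers were higher in 4 of 6 in knockout and lower in 3 of 6 in wild type (529 to 842 and 321 to 531 CPM). Immune markers were higher in 3 and lower in 1 of 8 in knockout, and in 2 and 1 in wild type. Pericyte and smooth muscle markers were higher in 1 and lower in 2 of 8 in knockout, and in 2 and 1 in wild type. Immune sums were 586 to 818 and 596 to 902 CPM, under day 0 in both. Pericyte and smooth muscle sums were 6292 to 7496 and 5458 to 7491 CPM, also under day 0. Cell cycle markers were higher in 3 of 8 in knockout, and higher in 1 and lower in 2 in wild type. The part of these lists in the day 21 changes of the glutathione transferases was not tested.

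Between days 7 and 21 in knockout by label, Gstm1, Gstt1 and Gstt3 were called higher and Gstm2 and Gstp1 lower, where 22.9% of all genes were called higher and 23.6% lower, 46.5% in all. Gstt1 rose by 0.83 (adjusted p = 0.000348) and Gstt3 by 0.50 (adjusted p = 0.0227) on the log2 scale. The call of Gstt3 was lost without knockout day 7 replicate 2 (0.38, adjusted p = 0.141) and without the library labelled knockout day 21 replicate 1 (0.39, adjusted p = 0.104), as well as with limma on either TPM scale (adjusted p = 0.227 and 0.225), on batch-corrected values (0.152) and with the 2 groups alone (0.0795). Gsto1 was at -0.37 with an adjusted p of 0.0504 by edgeR, and was called lower by DESeq2 (adjusted p = 0.0492), by limma on log2(TPM + 1) (0.0150) and on batch-corrected values (0.0123). It was at -0.59 with an adjusted p of 0.0067 without the library labelled knockout day 21 replicate 1. Gsta3, not called by edgeR, was called higher with limma on log2(TPM + 0.1) (1.62, adjusted p = 0.0321) and on batch-corrected values (0.32, adjusted p = 0.0375). Gstp1 fell by 0.63 (adjusted p = 0.00171) to 134 and 127 TPM, and Gstm2 fell by 0.42 (adjusted p = 0.00374) to 63.5 and 66.0 TPM, the lowest mean of that gene among the 6 groups, though it overlapped knockout at day 0. In wild type by label 5 members were called higher and 0 lower, against 20.3% and 19.8% of all genes, 40.1% in all. The shared day 7 libraries favour higher values here, so nothing is read from that count. Gstt1 rose by 1.21 (adjusted p = 6.22e-05), Gsta4 by 0.79 (adjusted p = 0.00484), Gstt3 by 0.48 (adjusted p = 0.0295) and Gstm5 by 0.32 (adjusted p = 0.0186) on the log2 scale. The last 2 calls did not survive every omission, with adjusted p up to 0.175 for Gstt3 (without wild type day 7 replicate 2, 0.38) and up to 0.119 for Gstm5 (without the same library, 0.28). The wild-type Gstt3 call was also lost with limma on log2(TPM + 1) (0.57, adjusted p = 0.0912) and log2(TPM + 0.1) (0.60, adjusted p = 0.0909), and both calls with the 2 groups alone (adjusted p = 0.0805 for Gstt3 and 0.0784 for Gstm5). Without the 2 doubted libraries Gstm1 was at 1.44 in knockout and 1.71 in wild type, Gstt1 at 0.99 and 1.25, and Gstt3 at 0.64 and 0.63. In knockout Gstp1 was then at -0.51, Gstm2 at -0.37 and Mgst1 at 0.42, and in wild type Gsta4 at 0.81 and Gstm5 at 0.26. By label, cell cycle markers were called lower in 8 of 8 in each genotype. Muscle fibre markers were lower in 7 of 10 in knockout and 8 of 10 in wild type. Schwann cell markers were higher in 5 of 6 in each genotype, and red blood cell markers in 5 of 6 in knockout and 0 in wild type. Pericyte and smooth muscle markers were higher in 4 and lower in 1 of 8 in knockout, and in 5 and 1 in wild type. The part of these lists in the changes from day 7 to day 21 was not tested.

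Before injury, in a comparison that shares its wild-type libraries with the contrast that chose the genes, 7 of the 10 members were lower in knockout than in wild type and none was higher, where 12.6% of all genes were called lower and 14.8% higher, 27.5% in all. Those shared libraries favour lower values in knockout, so nothing is read from the count. The median log2 fold change, knockout against wild type, was -0.46 over the members and 0.00195 over all genes. Mgst1 differed most, at 150 and 160 TPM in wild type and 92.8 and 84.2 TPM in knockout, with no overlap. Its log2 fold change was -1.10 (SE 0.13, adjusted p = 0.000604), and its mean CPM was 46.6% of wild type. Gstm2 was at 105 TPM in both wild-type libraries and at 75.8 and 65.3 TPM in knockout (-0.61, SE 0.093, adjusted p = 0.00161). Gstm1, at 865 and 877 against 647 and 614 TPM, was lower by a similar amount (-0.54, SE 0.081, adjusted p = 0.00162), while Gstm5, the third mu member, was not called.

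The remaining calls at day 0 were less secure. Gstt3 (log2 fold change -0.67, adjusted p = 0.0102), Gsto1 (-0.54, adjusted p = 0.0188), Gstp1 (-0.38, adjusted p = 0.0374) and Gstt1 (-0.37, adjusted p = 0.0436) all lay lower in both knockout libraries. Leaving out any 1 of the 4 day 0 libraries ended the calls of Gstt1, Gstt3 and Gsto1 (adjusted p 0.0540 to 0.210), and that of Gstp1 was ended by 3 of them, wild type replicates 1 and 2 and knockout replicate 2 (adjusted p up to 0.289). The count of members called lower was 3 or 4 without 1 of these libraries. The call of Gstt1 was also lost without any 1 of the 4 day 7 libraries (adjusted p 0.0538 to 0.0637) and with no filter on low counts (0.0733), that of Gstp1 without either wild-type day 7 library (0.0592 and 0.0595), and that of Gstt3 on batch-corrected values (-0.45, adjusted p = 0.149). With limma on log2(TPM + 1) Gstt3 was at -0.39 with an adjusted p of 0.281, Gstp1 at -0.33 with 0.0831 and Gstt1 at -0.29 with 0.0531. With the replicate number as a block Gstt1 was at -0.37 with an adjusted p of 0.0606. Gstm5 (-0.07, 95% interval -0.27 to 0.14), Gsta4 (-0.05, -0.43 to 0.32) and Gsta3 (0.18, -1.05 to 1.40) did not pass the test. Gstm5 was at 136 and 148 TPM in knockout against 131 and 134 in wild type, so in TPM its direction was the opposite, 0.10 on log2(TPM + 1).

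Other transcripts differed between the genotypes at day 0, where 12.6% of all genes were called lower and 14.8% higher in knockout. The muscle stem cell markers summed to 3043 to 3067 CPM in wild type and 2012 to 2056 CPM in knockout, with 9 of 13 called lower. Immune markers summed to 1774 to 1806 CPM in wild type and 2902 to 2940 CPM in knockout (Lyz2 at 0.71 on the log2 scale, adjusted p = 0.0614), and Schwann cell markers to 2717 to 2798 and 3263 to 3335 CPM, with 2 of 6 called higher. Red blood cell markers summed to 880 to 886 and 193 to 205 CPM, with 6 of 6 called lower, and pericyte and smooth muscle markers to 8882 to 8950 and 13643 to 14065 CPM, with 4 of 8 called higher. Fibro-adipogenic markers summed to 22140 to 22767 CPM in wild type and 16697 to 17663 CPM in knockout, with 3 of 11 called lower and none higher, and muscle fibre markers to 127 to 138 and 88.1 to 98.0 CPM, with 3 of 10 called lower. Cell cycle markers were called lower in 7 of 8. The part of these differences in the lower glutathione transferase levels was not tested.

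**Figure D4:**
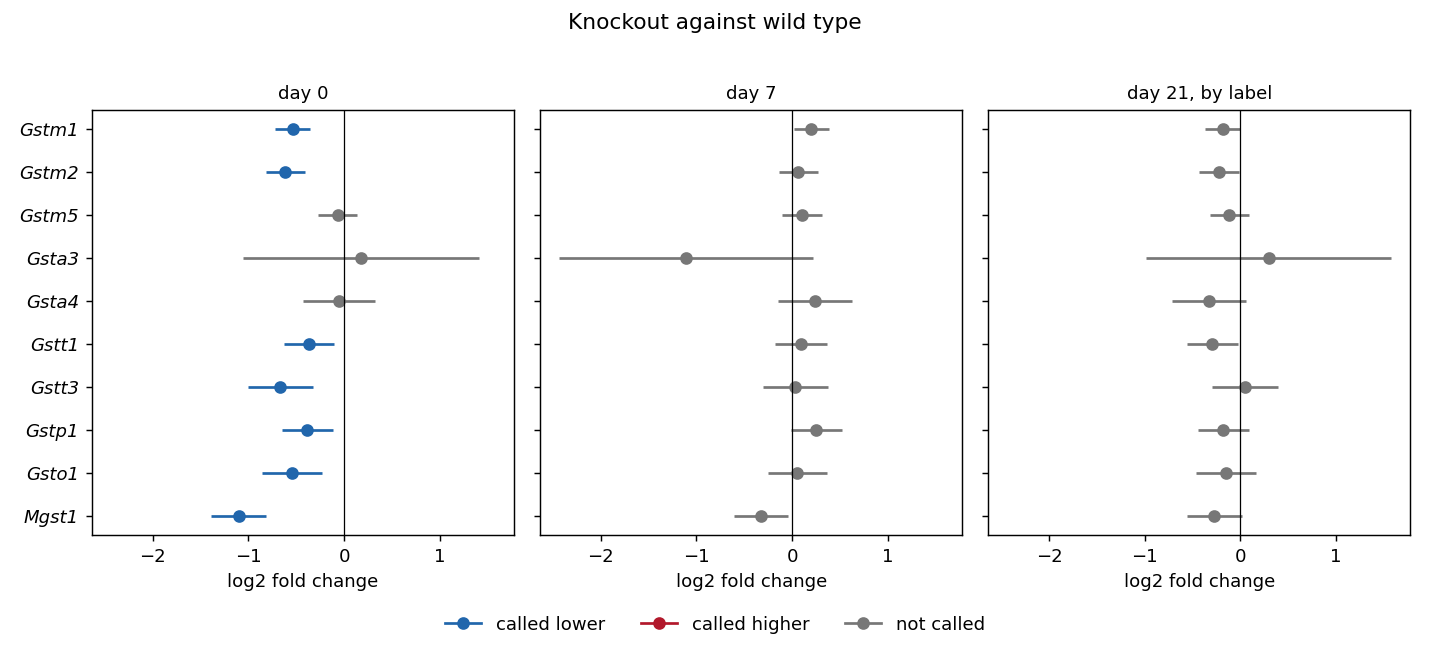
Log2 fold change of knockout against wild type for each gene at each day, from edgeR over all 12 libraries, with 95% intervals as bars. At day 0 the 7 called genes lie between -1.10 and -0.37, and at days 7 and 21 no gene was called.

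At day 7, where the wild-type libraries are again those of that contrast, no member was called between the genotypes by edgeR, where 1.77% of all genes were called (280 genes, against 14 to 619 with 1 library left out), and 2 of the 10 had an unadjusted p under 0.05. These were Gstm1, at 188 and 180 TPM in wild type and 205 in both knockout libraries (log2 fold change 0.20, 95% interval 0.02 to 0.38, adjusted p = 0.292), and Mgst1, at 106 and 109 against 75.6 and 96.6 TPM (-0.32, -0.61 to -0.04, adjusted p = 0.274). In CPM 7 members were higher and 2 lower in knockout without overlap, beside 24.3% and 23.1% of all genes, and the shared wild-type libraries favour the former. Gstt1 was among the 7 in CPM but overlapped in TPM, at 24.3 and 24.7 against 23.5 and 25.5, with a 95% interval from -0.18 to 0.36 on the log2 scale. Gsto1 was at 94.6 and 91.5 against 93.5 and 94.5 TPM, with an interval from -0.26 to 0.36. DESeq2, limma and every other alternative tried also called 0 of the 10.

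At day 21 by label no member was called by edgeR, where 0.0126% of all genes were called (2 genes, against 0 to 864 with 1 library left out and 1203 without both doubted libraries), and 3 of the 10 had an unadjusted p under 0.05. They were Gstm1 (log2 fold change -0.19, adjusted p = 0.337), Gstm2 (-0.22, adjusted p = 0.317) and Gstt1 (-0.29, adjusted p = 0.312). DESeq2, limma and the fit without the doubted libraries also called 0, and in that last fit Gstm1 was at -0.08 (adjusted p = 0.640). In CPM 6 members were lower without overlap in the libraries labelled knockout, beside 19% of all genes.

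Across the 12 libraries the members fell into unlike courses. The correlations of log2 CPM that follow describe libraries that share genotype, day and depth, and have no p. With Gstm1, Pearson's r was 0.98 for Gstt1, 0.90 for Gstt3, 0.88 for Gstm5, 0.87 for Gsta4, 0.66 for Gsta3 and 0.60 for Mgst1. It was 0.17 for Gstm2, -0.13 for Gstp1 and -0.68 for Gsto1. Gstm2 followed Gstp1 instead, with r of 0.87, although it lies beside Gstm1. Ordered by mean TPM, Gstm1 ran from wild type day 0 through knockout day 0, the libraries labelled wild type and knockout at day 21, and knockout day 7 to wild type day 7, and no neighbours in that order overlapped. Gsto1 ran nearly the reverse, from day 7 (knockout and wild type overlapping) through day 21 (overlapping) to wild type and then knockout at day 0. Gstm2 was highest in wild type at day 0, and its 3 lowest groups, wild type by label at day 21, knockout at day 0 and knockout by label at day 21, overlapped from neighbour to neighbour. Mgst1 was highest in wild type at day 0 and its 3 knockout groups, all lowest, overlapped.

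The 5 named genes outside the family with a course most like that of Gstm1 were Eif1, a factor in the choice of translation start sites (r = 0.989), Lypd2 (0.988), Hivep3, a zinc finger protein (0.985), Hhip, which binds Hedgehog ligands (0.985), and Flrt3, a cell surface adhesion protein (0.984), over 12 libraries. In knockout from day 0 to day 7 the log2 fold change was -2.60 for Lypd2, -2.28 for Hhip, -1.41 for Flrt3, -0.83 for Eif1 and -0.59 for Hivep3. These values describe genes picked for their likeness over the same libraries, which fixed their direction, and carry no test.

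Among 19 other genes of the family and its membrane relatives 18 had a row, Gstp3 being the one without, and 15 were tested. In knockout from day 0 to day 7, 4 of the 15 were called higher and 5 lower, beside 24.7% and 22.2% of all genes, with a median log2 fold change of -0.09. Gstp2, the near copy of Gstp1, went from 3.99 and 3.02 CPM to 17.4 and 15.2 CPM (log2 fold change 2.21, SE 0.20, adjusted p = 1.19e-05). In wild type it was at 8.23 and 9.20 CPM at day 0 and 16.0 and 16.4 CPM at day 7, so it was higher at day 7 in every library. Gstk1, the kappa class enzyme of mitochondria and peroxisomes, fell from 27.1 and 26.7 CPM to 9.18 and 10.5 CPM (-1.45, adjusted p = 2.51e-05). Mgst3, a microsomal enzyme, fell from 95.8 and 84.6 CPM to 43.0 and 40.9 CPM (-1.10, adjusted p = 8.39e-05). In the mu cluster Gstm6 (-1.20) and Gstm7 (-0.99) were called lower and Gstm4 (0.69) higher, so that, with the 3 mu members, 4 of the 6 tested mu genes were called lower, 1 higher and 1 neither way. Gsta1, Gsto2, Mgst2, Ptges, Ltc4s and Alox5ap did not pass the test. Before injury 2 of the 15 were lower in knockout, beside 12.6% of all genes, Gstp2 (-1.31, adjusted p = 0.00159) and Gstm4 (-0.78, adjusted p = 0.0124), and none was higher.

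Of 27 genes tested that make or use glutathione, 6 were called higher and 9 lower at day 7 in knockout, beside 24.7% and 22.2% of all genes, with a median log2 fold change of -0.18. Gpx7, a glutathione peroxidase of the endoplasmic reticulum, rose from 18.0 to 74.4 CPM on average (log2 fold change 2.05, adjusted p = 6.03e-07). Gsr, which regenerates reduced glutathione, rose by 0.90 (adjusted p = 6.14e-05) and Esd, which hydrolyses S-formylglutathione, by 0.73 (adjusted p = 5.92e-05). Gclc and Gss, which carry out the steps of glutathione synthesis, did not pass the test at -0.35 (adjusted p = 0.168) and -0.08 (adjusted p = 0.600). Gclm, the modifier subunit of the first step, fell by 0.54 (adjusted p = 0.0118). Before injury 5 of the 27 were higher and 6 lower in knockout, beside 14.8% and 12.6% of all genes.

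Of 22 genes of the NRF2 pathway tested, 7 were called higher and 4 lower at day 7 in knockout, beside 24.7% and 22.2% of all genes, with a median of -0.000336. Fth1, the ferritin heavy chain, fell by 1.16 (adjusted p = 1.16e-05) and Nqo1, a quinone reductase, by 0.90 (adjusted p = 0.000932), whereas Gsr rose. Nfe2l2, which encodes NRF2, was at 260 CPM on average on both days, with an adjusted p of 1.00. Before injury 1 of the 22 was higher in knockout and 5 lower, beside 14.8% and 12.6% of all genes, the 5 being Osgin1, Txn1, Prdx1, Slc7a11 and Gclm. These genes were named after their values were seen.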

How the data were processed

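Estimated counts and TPM (a length-scaled share of all transcripts) per gene were deposited by the authors, who made them with kallisto 0.46.1 on GRCm38.p6 (mm10), per the submitters' processing notes. A deposited table of batch-corrected log2-scale values (rlog, per the labels) served as an alternative only, and the batch it corrects is not given in the sources used here. Libraries were made with SmartSeq v4 and Nextera XT and read as 76-base single ends, per the labels. Of 30154 rows, 42 repeated another row's symbol and all 12 values and were removed. Estimated counts were rounded, genes with low counts removed (filterByExpr), and 15859 genes fitted with edgeR 4.0.16 in R 4.3.3 (TMM scaling, robust quasi-likelihood test, 1 mean per group over 12 libraries, Benjamini-Hochberg adjustment over all genes tested, called at an adjusted p under 0.05, prior count 0.125 for fold changes and 2 for log2 CPM). Fold changes carry the standard error and 95% interval of that fit. Limma 3.58.1 and DESeq2 1.42.0 were alternatives, with other filters, pseudocounts of 1 and 0.1 TPM, a replicate block and each library left out. Tested on simulated counts for knockout day 7 against day 0, edgeR recovered 198 of 200 changed genes among 15286, with 11 of 209 calls false. The planted changes were large (median fitted size 1.99 on the log2 scale), in few genes and with a spread set in advance. These rates therefore do not carry over to the smaller changes and the many called genes here. Named genes were the 10 members, up to 3 called genes of each other list with the smallest adjusted p in knockout at day 7, and the 5 genes most correlated with Gstm1; a few more are named after their values were seen. The members and gene lists were chosen with earlier results of these data known. Depth was 28396862 to 38950614 estimated counts per library. Promoters are RefSeq sequences, and shared windows were counted over GENCODE M21 transcripts.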

Additional observations from a re-analysis of the deposited data

Results flagged for a closer look

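Gstm2 and Gstp1 moved in opposite directions between day 0 and day 7 in the 2 genotypes, every library of wild type being lower at day 7 and every library of knockout higher, in CPM. The log2 fold change of Gstm2 was -0.48 in wild type and 0.20 in knockout, and the knockout value did not pass the test. The log2 fold change of Gstp1 was -0.30 in wild type and 0.34 in knockout. The difference between the genotypes was not tested, because the wild-type contrast was used to choose the genes. With Gstp2 summed in, wild type was at 90.8 and 94.5 CPM at day 0 and 83.1 and 86.0 CPM at day 7, but at 204 and 210 TPM and then 217 and 228 TPM, so the wild-type direction of the sum depended on the scale. Knockout was higher at day 7 on both scales, at 75.1 and 60.7 CPM and then 103 and 92.2 CPM.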

How the results depend on the processing

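Precision is limited by 2 libraries per group, by the few counts of Gsta3 and, at day 21, by the doubted labels. Of the values of single members, 925 kept direction and call under other settings, 26 lost and 12 gained a call, and 19 changed sign; with 1 library left out these numbers were 900, 43, 6 and 11. No value that changed sign had been called, and the cause was not tested. Members called higher in knockout at day 7 numbered 1 in place of 2 with no filter on low counts or with the 2 groups alone, and 3 with limma on either TPM scale, where those called lower numbered 5 in place of 6. Members called higher in wild type at day 21 against day 0 numbered 1 in place of 0 with limma on log2(TPM + 1) or log2(TPM + 0.1), those against day 7 numbered 3 in place of 5 with the 2 groups alone, and members lower in knockout at day 0 numbered 4 in place of 7 with limma on either TPM scale. With 1 library left out the counts ran from 1 to 2 higher in knockout at day 7 and 0 to 1 higher in wild type at day 21 against day 0. They ran from 3 to 5 higher in wild type at day 21 against day 7, and 3 to 7 lower in knockout at day 0. Without knockout day 7 replicate 2 the lower calls of Gsta3 and Gstt3 in knockout at day 7 were both lost. Signs changed for Gsta3 in knockout at day 21 against day 0 (0.011 on log2(TPM + 0.1)) and Mgst1 there (-0.059 on batch-corrected values, -0.045 to 0.28 with 1 library left out). In wild type at day 21 against day 7 Gsta3 was at 0.089 and 0.15 on the TPM scales, 0.069 batch-corrected and 0.35 without the doubted libraries (-0.75 to 0.35 with 1 left out). Between genotypes at day 0, Gstm5 was at 0.098 and 0.099 on the TPM scales and 0.034 batch-corrected, Gsta3 at -0.11, -0.22 and -0.083 (-0.42 to 0.61 with 1 left out), and Gsta4 at 0.00347 and 0.00363 (-0.11 to 0.028). At day 7 Gstt3 ran from -0.098 to 0.15 with 1 left out. At day 21 Gstt3 was at -0.044, -0.045 and -0.062 (-0.087 to 0.20), Gsta3 at -0.22 and Gsto1 at 0.18 without the doubted libraries (-0.14 to 0.94 and -0.39 to 0.049 with 1 left out). Gsta3 gave no value when 10 counts were asked of every library. On log2(TPM + 1) the median of all genes moved to 0.12 in knockout at day 7. Over all genes, calls between the genotypes numbered 280 at day 7 (14 to 619 with 1 library left out) and 2 at day 21 (0 to 864, and 1203 without both doubted libraries). No pairing by replicate number was seen in the correlations of the libraries' deviations, which ran from -0.143 to 0.0697. Such correlations cannot tell whether libraries shared an animal, a sort or a batch. With the number as a block, 6 members in place of 7 were lower in knockout at day 0. The counts of members in the other comparisons were as without it.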
